A study of Homo sapiens with 8 samples.

Results

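The genes described here are the FOS and JUN members of the transcription factor AP-1, namely FOS, FOSB, FOSL1, FOSL2, JUN, JUNB and JUND. They were chosen by symbol and not by a limit on their values, but with earlier results of these data known. All 7 were found among the 58828 genes of the count tables. The study asked how PAGE4, a cancer testis antigen of the prostate, acts in prostate cancer cells under oxidative stress, and it turned to the MAPK cascade, whose kinases act on AP-1 proteins. RNA was sequenced from 22RV1 and DU145 cells, which are established human prostate cancer cell lines, 22RV1 with and DU145 without the androgen receptor. Each line was infected with a lentivirus that carried either an empty vector or HA-tagged PAGE4 under a doxycycline-inducible promoter, selected with puromycin, and given doxycycline whichever construct it carried. Cells then received PBS or H2O2 for 12 h before collection. The labels give the H2O2 dose as 200 mM, which is far above what is usual for cultured cells, and nothing in the count tables can check its unit. This makes 8 conditions (22RV1 or DU145, Vector or PAGE4, PBS or H2O2) and 1 library for each, and a contrast of 2 conditions therefore lacks replicates.

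AP-1 is a dimer held together by a leucine zipper. JUN proteins can pair with each other or with FOS proteins, while FOS proteins need a JUN partner to bind DNA. FOS, FOSB, JUN and JUNB are immediate early genes, which growth factors and stress switch on within minutes through MAPK signalling, whereas JUND is made more steadily, and FOSL1 is a late member whose transcription AP-1 itself can drive. JUN N-terminal kinase phosphorylates JUN, and ERK stabilizes FOS and FOSL1 proteins, neither of which RNA counts can show.

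Total counts per library ranged from 25482984 to 43310401. PAGE4 had 1179 to 1489 reads in 22RV1 PAGE4 libraries, 1001 and 1431 in DU145 PAGE4 libraries and at most 1 in each of the 4 vector libraries. Of 8 markers of 22RV1 cells, 7 were higher in every 22RV1 library than in any DU145 library, with TRPM8 near 0 in both lines. Of 7 markers of DU145 cells, 5 were higher in every DU145 library, and CD44 and LGALS1 overlapped between the lines. Under matched construct and treatment LGALS1 was lower in DU145, with a log2 difference of -0.49, and CD44 was at -0.21. Markers of blood, endothelial and stromal cells summed to 6.02 to 30.2 CPM, which is counts scaled to the library total. With the size factors used for single pairs, the median log2 change of genes with H2O2 was -0.04 (vector) and -0.02 (PAGE4) in 22RV1 cells, and scaling by total counts put it at 0.07 and 0.10, so that values of these pairs are relative to that median.

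Promoter sequence is shown for the members that H2O2 moved most from an immediate early class, together with short stretches of the others, because the same core of a cAMP response element recurs in them. RefSeq promoters on GRCh38.p14 were found for 6 of the 7 members, FOSL1 being the other. The 250 bases before the start of all 6 hold TGACG or its reverse complement CGTCA, against 21.7% of 27305 promoters searched on both strands in the same window. The core was picked because it recurs in these promoters, so this comparison is a description and not a test. In the lines that follow, capitals mark TGACG, the longer TGACATCA of the JUN promoter (found in 2.45% of promoters), the full TGACGTCA of the JUND promoter (1.77% of promoters, and a match that contains TGACG) and the TATAAA of FOS and FOSB (11.1% of promoters).
FOS, chr14:75278688-75278817, plus strand: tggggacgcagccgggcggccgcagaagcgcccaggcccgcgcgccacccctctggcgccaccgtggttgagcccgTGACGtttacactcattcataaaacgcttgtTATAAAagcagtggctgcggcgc
FOSB, chr19:45467856-45467985, plus strand: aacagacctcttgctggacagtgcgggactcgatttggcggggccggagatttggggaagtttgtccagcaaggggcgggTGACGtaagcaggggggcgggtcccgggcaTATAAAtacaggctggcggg
JUN, chr1:58784058-58784187, minus strand: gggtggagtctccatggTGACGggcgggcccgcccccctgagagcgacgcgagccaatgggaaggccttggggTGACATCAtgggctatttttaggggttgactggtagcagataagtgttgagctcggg
FOSL2, chr2:28392781-28392810, plus strand: gagtctggggtTGACGtgagtgaatccaca
JUNB, chr19:12791338-12791367, plus strand: cttcctgacagTGACGcgagccgcctcctc
JUND, chr19:18281804-18281833, minus strand: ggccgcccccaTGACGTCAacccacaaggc

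TGACG began 64 bases before the start in FOS, 60 in FOSB, 66 in FOSL2, 123 in JUN, 137 in JUNB and 200 in JUND. TATAAA began 33 bases before the start in FOS, 30 in FOSB and 31 in JUNB, where it lies outside the stretch shown. The FOSL2 stretch lies inside the gene as GENCODE places it (from 28392448), so the RefSeq start used here is a different one. TGANTCA, the AP-1 site of the TRE type, was in none of the 6 windows and in 6.6% of all promoters, and the CArG box, the letters that serum response factor reads, was in none of the 6 and in 1.14% of all. These matches describe letters in a short window and were not tested as binding sites. Bases farther before the start were not searched, so a site missing from the window can still lie in the same promoter.

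The lines differed in which AP-1 genes they used. Levels between genes were compared as RPKM, which scales reads to the annotated exon length in kilobases and to the library total. In 22RV1 cells JUND was the most abundant member in all 4 libraries, at 33.7 RPKM with the vector and PBS, 61.2 after H2O2 in the same cells, and 46.2 and 69.2 in PAGE4 cells without and with H2O2. In DU145 cells it was FOSL1, at 47.6, 225.8, 68.9 and 241.4 RPKM in the same order. FOSL1, also called FRA1, is an AP-1 member long linked to invasive carcinoma cells. In 22RV1 cells without H2O2 it was the least abundant member, at 0.367 RPKM with the vector and 0.176 with PAGE4.

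**Figure D1:**
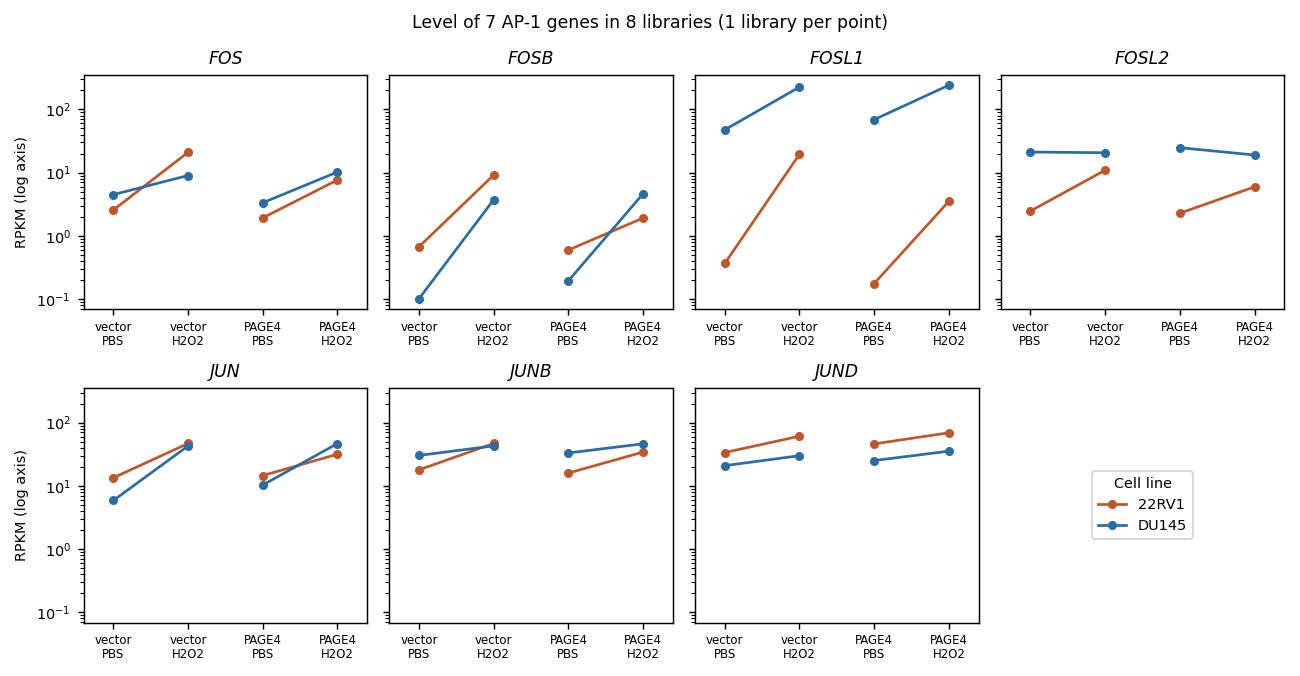
RPKM of each AP-1 gene on a log axis in the 8 libraries, with 22RV1 in orange and DU145 in blue and a line joining the PBS and H2O2 libraries of the same construct; each point is 1 library and has no replicate error. FOSL1 runs from 47.6 to 241.4 RPKM in DU145 and from 0.176 to 19.5 RPKM in 22RV1, and JUND lies higher in 22RV1 than in DU145 under each matched condition.

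The order below the top gene was less firm. In 22RV1 cells JUNB ranked above JUN in all 4 libraries, but by little after H2O2, when both were at 47.0 RPKM in vector cells and at 34.3 and 31.7 RPKM in PAGE4 cells. In DU145 PAGE4 cells with H2O2, JUN and JUNB were at 46.8 and 46.4 RPKM, and with the vector they lay closer still, so without replicates their order cannot be told. FOSB was the least abundant member in all 4 DU145 libraries, between 0.102 and 4.64 RPKM. With the longest transcript in place of all exons as the length, 16 of the 56 ranks moved, among them that of JUN and JUNB, but JUND stayed at the top in the 22RV1 libraries and FOSL1 in the DU145 libraries.

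Summed over the 7 genes, the level was 71.3 RPKM in 22RV1 vector cells with PBS, 215.7 with H2O2, and 81.7 and 154.3 in the 22RV1 PAGE4 cells. In DU145 cells the corresponding sums were 130.5, 375.2, 166.0 and 403.9 RPKM. The 4 FOS genes made up 8.53% of this sum in 22RV1 vector cells with PBS and 28.1% with H2O2, but 6.08% and 12.3% in 22RV1 PAGE4 cells. In DU145 cells the FOS genes held 56.2% and 69.1% with the vector and 58.6% and 68.1% with PAGE4. Reads of every FOS and JUN gene were present in every library, with the fewest, 13, for FOSL1 in 22RV1 PAGE4 cells with PBS.

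**Figure D2:**
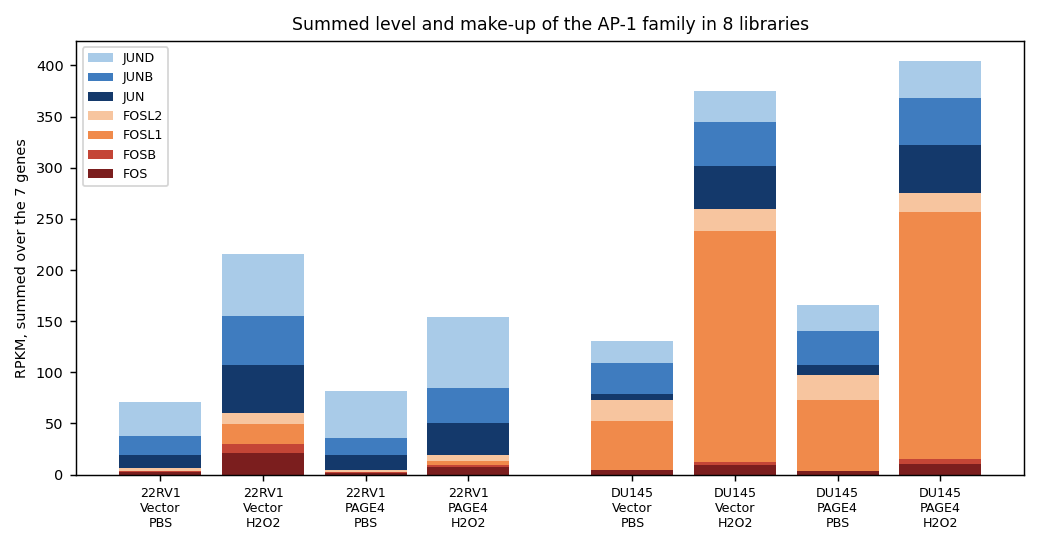
Stacked bars of RPKM for the 7 AP-1 genes in each library, FOS genes in dark red to pale orange at the bottom and JUN genes in blues at the top. JUND, JUNB and JUN make up most of each 22RV1 bar, and FOSL1 is the largest block of every DU145 bar, reaching 60.2% of the sum in vector cells with H2O2.

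Between the lines, DU145 against 22RV1 under the matched construct and treatment, 3 of the 7 members were higher and 1 was lower (edgeR's quasi-likelihood test with Benjamini-Hochberg adjustment over 22418 genes). Over all genes 28.5% were higher and 31.9% lower in DU145, so differing between the lines did not set these genes apart. FOSL1 was higher in DU145 by 6.20 on the log2 scale (SE 0.71, adjusted p = 0.00014 in edgeR's test), in 4 of 4 pairs. FOSL2, its closest paralogue by class and like it without a transactivation domain, was higher by 2.48 (SE 0.39, adjusted p = 0.000808 in edgeR's test). JUNB was higher by 0.73 (SE 0.17, adjusted p = 0.00699 in edgeR's test), and JUND was lower, with a log2 difference of -0.69 (SE 0.10, adjusted p = 0.000499 in the same test). FOS, FOSB and JUN did not pass, with log2 differences of 0.40, -0.78 and -0.11. FOSB passed as lower without the PAGE4 pair with H2O2 (-1.58), and FOS as higher without the vector pair with H2O2 (0.86). With 1 line of each kind, androgen receptor status and anything else that differs between the lines cannot be told apart.

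H2O2 raised most of the family. With the 4 pairs of H2O2 and PBS libraries (each line with each construct) taken as blocks, 6 of the 7 members rose and none fell in edgeR's quasi-likelihood test, against 8.89% of 22418 genes that rose and 11.2% that fell. The median log2 fold change of the 7 was 1.81, and that of all genes tested was -0.03. FOSB rose most, by 3.60 on the log2 scale (SE 0.52, adjusted p = 0.00439 in edgeR's test), followed by FOSL1 at 3.01 (SE 0.55, adjusted p = 0.0096), JUN at 1.89 (SE 0.26, adjusted p = 0.00354) and FOS at 1.81 (SE 0.28, adjusted p = 0.00565). JUNB rose by 0.77 and JUND by 0.52. FOSL2 was at 0.66 (SE 0.38, adjusted p = 0.257 in edgeR's test) and did not pass, except when genes with low counts were left in. The labels do not say that libraries came from separate cultures, so the p-values cannot speak for the spread between cultures. They rest on the spread between pairs of libraries, which edgeR's fit partly shares over all 22418 genes. An SE is therefore not the spread of that gene's own pairs alone.

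Pair by pair, 7 of the 7 members were over 1.5-fold higher with H2O2 in 22RV1 vector cells (17.7% of 20264 genes with a mean of at least 10), 6 in 22RV1 PAGE4 cells (14.8%), 4 in DU145 vector cells (19% of 18088 genes) and 4 in DU145 PAGE4 cells (19.4%). None was over 1.5-fold lower. The member short of 1.5-fold in 22RV1 PAGE4 cells was JUND, and in both DU145 pairs FOSL2, JUNB and JUND fell short.

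In 22RV1 cells, all 7 members rose with H2O2 when 1 effect per line was fitted, against 12.8% of all genes that rose and 14.9% that fell. FOSL1 had 30 reads without and 1265 with H2O2 in vector cells, and 13 and 169 in PAGE4 cells. The H2O2 libraries were therefore far above the PBS libraries for both constructs. The fitted log2 change was 5.24 (SE 0.22, adjusted p = 4.94e-11 in edgeR's test), with only 13 and 30 reads behind the PBS level. The log2 change with PAGE4 less that with the vector was -1.43, so this SE is small beside the distance between the pairs. FOSB, known for a long-lived short splice form that gene counts do not separate, had 162 and 1754 reads in vector cells and 130 and 271 in PAGE4 cells. FOS had 354 and 2296 reads in vector cells and 240 and 621 in PAGE4 cells. For both genes each H2O2 library was above each PBS library, and the fitted log2 changes were 2.69 for FOSB and 2.42 for FOS. FOSL2 had 766 and 2688 reads in vector cells and 640 and 1086 in PAGE4 cells, a log2 change of 1.65.

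Among the JUN genes of 22RV1 cells, JUN, the founding member and the target of JUN N-terminal kinase, had 2115 reads without and 5851 with H2O2 in vector cells, and 2072 and 2930 in PAGE4 cells. Both H2O2 libraries lay above both PBS libraries. Its log2 change was 1.34. JUNB, a JUN protein that activates weakly and can hold JUN back, had 1426 and 2960 reads in vector cells and 1147 and 1600 in PAGE4 cells, a log2 change of 1.12. JUND had 2817 and 4057 reads in vector cells and 3495 and 3404 in PAGE4 cells. After normalization JUND was higher with H2O2 for both constructs, by 0.75 and 0.46 on the log2 scale, and the fitted change was 0.60 (adjusted p = 0.000105 in edgeR's test).

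In DU145 cells, 6 of the 7 rose, against 16.9% of all genes that rose and 19.8% that fell. FOSB had 17 reads without and 543 with H2O2 in vector cells, and 32 and 680 in PAGE4 cells. JUN had 643 and 4067 reads in vector cells and 1108 and 4480 in PAGE4 cells. FOSL1 had 2703 and 11131 reads in vector cells and 3847 and 12022 in PAGE4 cells. In all 3 genes both H2O2 libraries were above both PBS libraries, and the fitted log2 changes were 4.77 for FOSB, 2.45 for JUN and 1.97 for FOSL1 (adjusted p = 5.22e-08, 2.41e-09 and 1.14e-09 in edgeR's test). FOS had 431 and 749 reads in vector cells and 314 and 860 in PAGE4 cells, a log2 change of 1.24. JUNB and JUND rose less, by 0.43 and 0.45, and neither was over 1.5-fold in either DU145 pair.

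FOSL2 was the exception in DU145 cells. Its reads went from 4561 without to 3860 with H2O2 under the vector, and from 5251 to 3591 under PAGE4. Both H2O2 libraries were below both PBS libraries, with a log2 change of -0.27 that did not pass (SE 0.12, adjusted p = 0.103 in edgeR's test). It passed as lower without either 22RV1 pair (-0.24 without the PAGE4 pair, -0.23 without the vector pair), with low counts left in (-0.24) and without the DU145 vector pair (-0.44). In that last fit DU145 has 1 library with and 1 without H2O2, so the spread comes from the 22RV1 pairs and the lone DU145 pair is assumed to vary like them. The change was -0.06 with the vector and -0.38 with PAGE4, and the counting interval of the latter ran from -0.45 to -0.32.

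**Figure D3:**
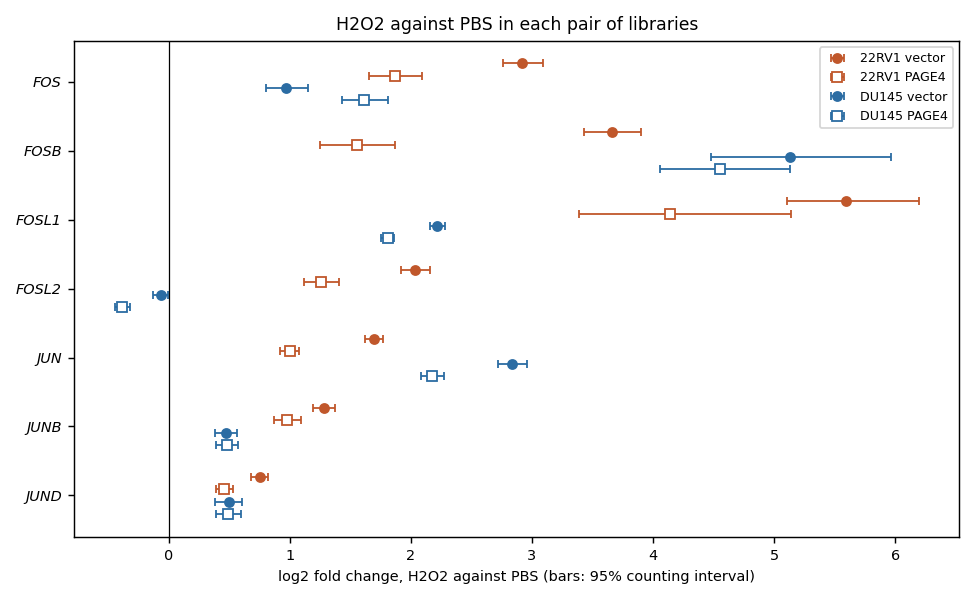
Log2 fold change of H2O2 against PBS for each gene in each pair of libraries, 22RV1 in orange and DU145 in blue, filled circles for vector cells and open squares for PAGE4 cells, with 95% Clopper-Pearson intervals that cover counting error only. In 22RV1 the open squares lie to the left of the filled circles for all 7 genes, and FOSL2 in DU145 is the only gene with points at or below 0.

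In DU145 cells the share of counts from MT-RNR1, the mitochondrial 12S rRNA, was 4.32% and 4.54% with H2O2 against 1.04% and 0.904% with PBS, and its part in the DU145 responses was not tested. In 22RV1 cells the summed level of the 8 markers of 22RV1 cells was 761 and 994 CPM with H2O2 against 1821 and 1723 CPM with PBS, and its part in the 22RV1 responses was not tested. In bulk RNA, fewer cells that express a gene and less RNA per cell cannot be told apart.

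The size of the H2O2 response differed between the lines for 6 of the 7 members when the difference itself was tested, 2 with the larger response in DU145 (7.54% of all genes) and 4 with the larger in 22RV1 (8.76%). The FOS genes split. FOSL1, FOSL2 and FOS responded less in DU145 than in 22RV1, with log2 differences of -3.27 (SE 0.26), -1.92 (SE 0.18) and -1.17 (SE 0.28), and FOSB responded more, by 2.08 (SE 0.52). JUN also responded more in DU145, by 1.11 (SE 0.20), and JUNB less, with a difference of -0.69 (SE 0.14). Adjusted p-values in edgeR's test ran from 1.96e-07 for FOSL1 to 0.00995 for FOSB, while JUND had a difference of -0.15 (adjusted p = 0.52 in the same test). With DESeq2's Wald test the differences of JUN and FOSB did not pass, and FOS did not pass without the vector pair of either line, where its difference was -0.58 (without the 22RV1 pair) or -0.84 (without the DU145 pair) and the spread came from the other line alone. FOSL1 started from 0.176 to 0.367 RPKM in 22RV1 and from 47.6 to 68.9 RPKM in DU145, and after H2O2 it was at 19.5 and 3.51 RPKM in 22RV1 against 225.8 and 241.4 in DU145.

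PAGE4 against vector gave a different picture in each line. Vector and PAGE4 cells of a line are separately infected and selected populations. PAGE4 and anything else that differs between these populations cannot be told apart. Over all 4 pairs of PAGE4 and vector libraries no member passed edgeR's quasi-likelihood test, in which 0.174% of all genes were called. At an unadjusted p under 0.05 were 2 of the 7 members and 7.72% of all genes, and with DESeq2's Wald test none passed after adjustment. JUND came closest, with a log2 difference of 0.29 (SE 0.07, adjusted p = 0.22 in edgeR's test) and higher values in PAGE4 cells in 4 of 4 pairs, followed by FOS at -0.53 (SE 0.20, adjusted p = 0.559), lower in 3 of 4 pairs. When 1 effect per line was fitted, 4 members were lower in 22RV1 PAGE4 cells than in 22RV1 vector cells, against 2.14% of all genes that were lower and 2.15% that were higher, and none was called in DU145 cells, where 0.17% of all genes were called and DESeq2's Wald test called no member either. At an unadjusted p under 0.05 in DU145 cells were 3 of the 7 members, JUN (0.43), FOSL1 (0.31) and JUND (0.25), each higher with PAGE4, and 7.52% of all genes.

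The 4 members lower in 22RV1 PAGE4 cells were the 4 FOS genes. Their log2 differences were -2.31 for FOSL1 (SE 0.19, adjusted p = 5.32e-07 in edgeR's test), -1.37 for FOSB (SE 0.31, adjusted p = 0.0159), -0.98 for FOS (SE 0.20, adjusted p = 0.0064) and -0.51 for FOSL2 (SE 0.13, adjusted p = 0.0415). JUN, JUNB and JUND were at -0.22, -0.30 and 0.33 and did not pass. These calls rested on the pair with H2O2: without it none of the 4 FOS genes passed, with log2 differences of -1.03, -0.15, -0.39 and -0.09 in the same order, and JUND passed as higher (0.48). Without the PBS pair, JUN (-0.53) and JUNB (-0.42) passed as lower as well. Either way 1 PAGE4 and 1 vector library of 22RV1 remain, so the spread in these fits comes from the DU145 pairs alone. With DESeq2's Wald test FOSL1 and FOS stayed past the threshold, and FOSB and FOSL2 did not.

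With H2O2, normalized counts in 22RV1 cells were 1220 for FOSL1 with the vector and 222 with PAGE4. FOSB was at 1691 and 357, FOS at 2214 and 817, FOSL2 at 2592 and 1429, and these 4 genes were over 1.5-fold lower, as were 12.1% of 20264 genes with a mean of at least 10. JUN was at 5641 with the vector and 3856 with PAGE4, and JUNB at 2854 and 2106, log2 differences of -0.55 and -0.44 whose counting intervals stayed below 0. JUND was at 3912 and 4480. With PBS, only FOSL1 was over 1.5-fold lower in 22RV1 PAGE4 cells, at 24.7 against 12.1 normalized counts with an interval of the log2 difference from -2.09 to -0.05, and 11.3% of all genes were lower to that degree.

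**Figure D4:**
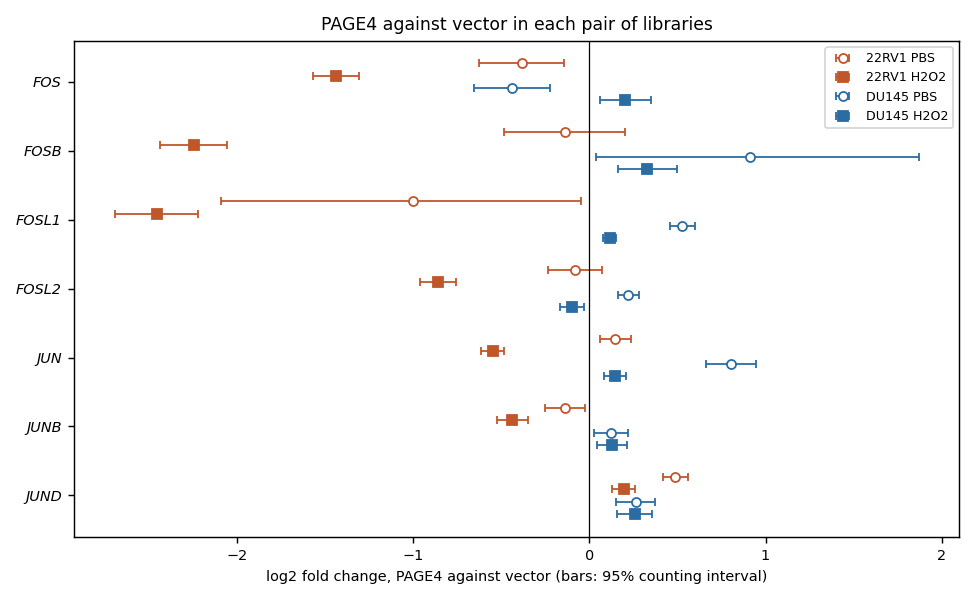
Log2 fold change of PAGE4 against vector for each gene in each pair of libraries, 22RV1 in orange and DU145 in blue, open circles for PBS and filled squares for H2O2, with 95% Clopper-Pearson intervals for counting error. The filled orange squares of the 4 FOS genes lie between -2.45 and -0.86, and the blue points lie between -0.44 and 0.91.

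In DU145 cells with H2O2 the family differed little between PAGE4 and vector cells, with log2 differences from -0.10 for FOSL2 to 0.33 for FOSB. No member was over 1.5-fold, against 15.2% of 18088 genes. With PBS, FOSB and JUN were over 1.5-fold higher in DU145 PAGE4 cells, as were 7.54% of all genes. JUN was at 597 normalized counts with the vector and 1042 with PAGE4, and FOSB rested on 17 and 32 reads. In the fit of both DU145 pairs JUN was at 0.43 (SE 0.15, adjusted p = 0.402 in edgeR's test). It passed as higher without either 22RV1 pair (0.43 each time), as did FOSL1 (0.31 each time). JUN also passed without the DU145 pair with H2O2 (0.80), in a fit that compares 1 library with 1 and takes its spread from the 22RV1 pairs. The difference of the PAGE4 effect between the lines passed for FOSL1, which was lower in 22RV1 PAGE4 cells and not in DU145 ones, by 2.62 on the log2 scale (SE 0.22, adjusted p = 2.15e-06 in edgeR's test), and 0.977% of all genes passed in that direction. Without the 22RV1 pair treated with H2O2 this difference was 1.33 and did not pass. Without the 22RV1 pair with PBS, the same difference passed for all members but JUND (0.54 for JUNB to 2.75 for FOSL1). JUN passed without the DU145 pair with H2O2 (1.01), and FOS and FOSB without the DU145 pair with PBS (1.17 and 1.68). Each of these fits has 1 pair in one of the lines and takes its spread from the other line. FOSB had a difference of 1.80 (SE 0.46, adjusted p = 0.0586 in edgeR's test).

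The same libraries can be read as the H2O2 response with and without PAGE4. In 22RV1 cells the response was smaller with PAGE4 for all 7 members, and the 95% counting interval of the difference excluded 0 for each, as it did downwards for 22.2% of 20264 genes. That share covers all genes, including those that did not rise with the vector, so it is not matched to the members. FOSB rose by 3.66 on the log2 scale with the vector and by 1.56 with PAGE4, a difference of -2.10 (interval -2.48 to -1.72). FOSL1 had a difference of -1.43 (interval -2.39 to -0.46), and FOS rose by 2.92 and 1.87, a difference of -1.05 (interval -1.32 to -0.78). JUN rose by 1.69 and 1.00, and FOSL2 by 2.04 and 1.26. The smallest differences were those of JUNB and JUND, at -0.30 and -0.29. The H2O2 response of all genes was also narrower with PAGE4 in 22RV1 cells, with an SD of 0.56 over the log2 changes of 14609 genes with a mean of at least 50, against 0.68 with the vector.

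In DU145 cells the interval of the difference lay below 0 for 3 of the 7 members. FOSL1 (-0.41) and JUN (-0.66) rose less with PAGE4 than with the vector, whereas FOSL2 (-0.32) was lower with H2O2 under both constructs and more so with PAGE4. FOS responded more with PAGE4 there, by 0.64 (interval 0.39 to 0.90). Intervals lay below 0 for 16.6% of 18088 genes and above 0 for 16.1%. Across both lines the difference between constructs passed for no member and no gene of 22418 (0%) in edgeR's test. At an unadjusted p under 0.05 were no member and 59 genes, and DESeq2's Wald test called no member. This fit has no separate H2O2 effect for each line, so the difference in response between the lines adds to its spread. For FOSL1 the SE was 1.16, against 0.26 for its H2O2 difference between the lines. The lack of calls therefore cannot show that the response was alike with both constructs. Without the DU145 vector pair FOSL1 passed, with a log2 difference of -3.03, in a fit where the vector has 1 pair and the spread comes from the PAGE4 pairs. Within 22RV1 cells alone the 4 libraries leave none for a replicate error, so that difference has counting error only. The H2O2 and PAGE4 comparisons use the same libraries and are not independent of each other.

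Other genes of the pathway were followed in 6 hand-written lists, shown by line in the plot of list members. All counts are from edgeR's quasi-likelihood test. The immediate early list holds 25 genes that share stress and MAPK control with FOS and JUN. With H2O2 over the 4 pairs, 16 of them rose, none fell and 9 did not pass, with a median log2 change of 0.81. The highest were EGR4 (3.38, SE 0.29, adjusted p = 0.000774 in edgeR's test), a zinc finger factor, and ARC (2.46, SE 0.38, adjusted p = 0.00549), a cytoskeletal protein best known from neurons. Over all genes 8.89% rose and 11.2% fell. By line, 23 rose and 1 fell in 22RV1 cells (12.8% and 14.9% of all genes), and 17 rose and 3 fell in DU145 cells (16.9% and 19.8%). EGR1, a zinc finger factor singled out after its values were seen, had 1281 reads in 22RV1 vector cells with PBS and 4364 with H2O2, and 1225 and 1240 in 22RV1 PAGE4 cells, where the H2O2 library was the shallower. Scaled for depth, its log2 change was 1.99 with the vector and 0.52 with PAGE4 in 22RV1 cells, and -0.33 and -0.71 in DU145 cells (8239 and 5797 reads, then 6140 and 3347). The fitted changes were 1.27 in 22RV1 cells (adjusted p = 0.000174 in edgeR's test) and -0.57 in DU145 cells (adjusted p = 0.0273 in edgeR's test), and the latter did not pass with DESeq2's Wald test or without the DU145 PAGE4 pair (-0.37). In 22RV1 cells the log2 change with H2O2 was lower with PAGE4 than with the vector for 22 of the 25, 17 with an interval below 0 and 1 with an interval above 0, against 10285, 4503 and 4133 of 20264 genes. In DU145 cells the same counts were 13, 7 and 7 of the 25, against 8971, 3003 and 2913 of 18088 genes.

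Among 31 tested AP-1 target genes, 14 rose with H2O2 over the 4 pairs, none fell and 17 did not pass, with a median of 0.85. Over all genes 8.89% rose and 11.2% fell. By line, 15 rose and 4 fell in 22RV1 cells (12.8% and 14.9% of all genes). In DU145 cells 19 rose and 1 fell (16.9% and 19.8%). The highest over the 4 pairs were the matrix metalloproteinases MMP10, stromelysin 2, and MMP1, interstitial collagenase. Both are classical AP-1 targets that cut extracellular matrix. MMP10 had 5, 488, 2 and 59 reads in 22RV1 cells (vector with PBS and H2O2, then PAGE4 with PBS and H2O2) and 2, 152, 1 and 81 in DU145 cells. MMP1 had 1, 105, 0 and 31 reads in 22RV1 cells and 7, 130, 0 and 99 in DU145 cells. Each H2O2 library was above each PBS library for both genes, from PBS counts of at most 7. Between 22RV1 PAGE4 and vector cells, 6 of the 31 were lower and 2 higher, against 2.14% and 2.15% of all genes. In DU145 cells 2 were higher and none lower, where 0.17% of all genes were called. Of 24 targets with a mean of at least 10 in 22RV1 cells, 17 had a lower H2O2 change with PAGE4. The interval lay below 0 for 11 and above 0 for 4. In DU145 cells the same counts were 21, 11 and 1 of 27 targets. Over all genes they were 10285, 4503 and 4133 of 20264 in 22RV1, and 8971, 3003 and 2913 of 18088 in DU145.

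The bZIP partners are proteins of the same fold that dimerize or compete with FOS and JUN. Of 17 tested, 8 rose with H2O2, 1 fell and 8 did not pass over the 4 pairs. Over all genes 8.89% rose and 11.2% fell. CREB5, which can pair with JUN, rose by 2.85 (SE 0.18, adjusted p = 0.000344 in edgeR's test) and ATF3, a stress factor that can act as a repressor, by 1.97 (SE 0.12, adjusted p = 0.000344), and CREB1, a factor that binds cAMP response elements, fell by 0.36 (adjusted p = 0.0497 in edgeR's test). CREB1 did not pass with DESeq2 size factors, with total counts, with low counts left in or when any 1 of the 4 pairs was left out. Without the 22RV1 vector pair 5 partners rose. CREB5 was also the partner lower in 22RV1 PAGE4 cells, with a log2 difference of -0.61 (adjusted p = 0.0106 in edgeR's test), and it did not pass without the 22RV1 pair with H2O2 (-0.63). Of 13 turnover and repression genes, 5 rose, 2 fell and 6 did not pass, and the share that fell is near the 11.2% of all genes. TRIB1 rose by 0.81 and FBXW7, which marks JUN for degradation, by 0.76, and USP28, which counters FBXW7, fell by 0.52 and MEN1, which binds JUND, by 0.37. MEN1 did not pass when any 1 of the 4 pairs was left out, USP28 without the 22RV1 vector pair or either DU145 pair, and TRIB1 without either DU145 pair. The number that rose was 3 without the DU145 PAGE4 pair.

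Upstream, 2 of 21 tested kinases rose, 5 fell and 14 did not pass, with a median of 0.03 beside -0.03 for all genes. Those shares lie near or above the 8.89% of all genes that rose and 11.2% that fell. The 5 that fell were 3 with total counts and without the 22RV1 vector pair or either DU145 pair, and in the same 3 leave-outs 1 kinase rose. MAP2K3, which acts on p38, rose by 0.96 and MAP2K4, which acts on JUN N-terminal kinase, by 0.52 (SE 0.11, adjusted p = 0.0155 in edgeR's test), which did not pass in those 3 leave-outs. MAP2K6, another p38 kinase, fell by 1.83 and MAPK3, which is ERK1, by 0.80 (SE 0.10, adjusted p = 0.00255). Of 11 factors that act on the FOS promoter and the like, 3 rose, 1 fell and 7 did not pass. ELK3 rose by 0.69 and SRF, serum response factor, by 0.62, and MKL2, a coactivator of serum response factor, fell by 0.64, which did not pass with total counts or without either DU145 pair. Between 22RV1 PAGE4 and vector cells, 2 of the 21 kinases were higher and 1 lower, against 2.15% and 2.14% of all genes. MAPK13 (0.66) and MAPK11 (0.50) were higher. MAP2K1, which acts on ERK, was lower, at -0.87 (SE 0.096, adjusted p = 1.8e-05 in edgeR's test). In DU145 cells MAP2K1 was at -0.03 and no kinase was called. The lists share ATF3, DUSP1, TRIB1 and ZFP36, so their counts overlap.

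**Figure D5:**
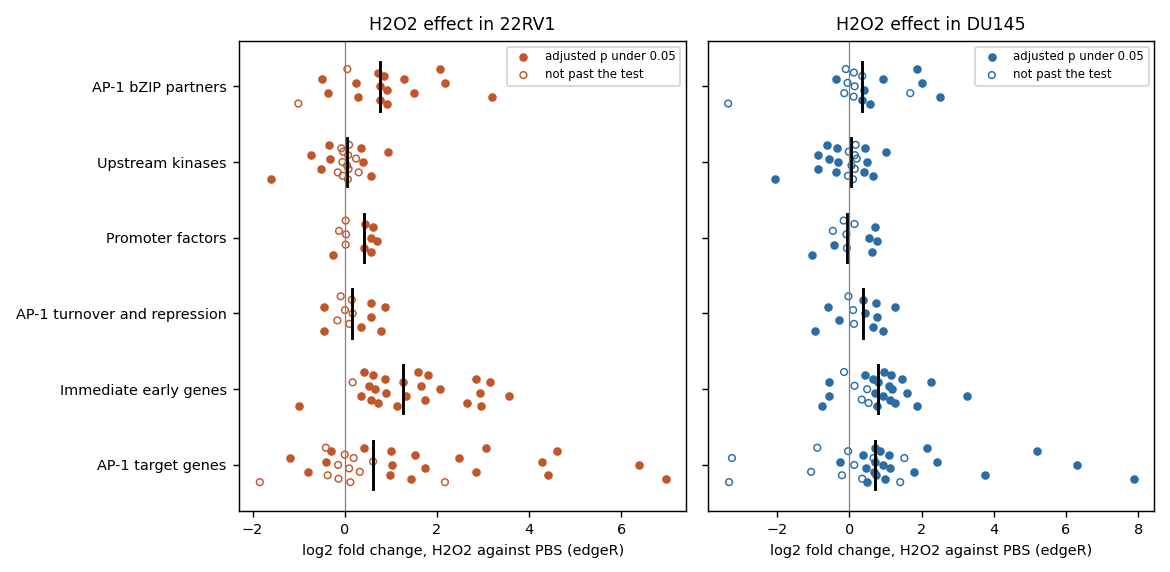
Log2 fold change with H2O2 of each tested gene in 6 pathway lists, 22RV1 on the left and DU145 on the right, filled points for an adjusted p under 0.05 in edgeR's test and open points for the rest, black bars for the median. The immediate early list has medians of 1.27 in 22RV1 and 0.80 in DU145, and the kinase list has medians of 0.05 and 0.06.

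Genes whose pattern over the 8 libraries lay closest to a member were sought by the root mean square difference of log2 levels after the mean of each line was removed, among 12322 genes with a mean of at least 50 in both lines. JUN had UPP1, a pyrimidine salvage enzyme, as its closest gene (0.11), then STC2 (0.25) and TRIB3 (0.25). FOSL2 lay closest to AVPI1 (0.10), GIPR (0.16) and HOMER1 (0.17), and JUNB to RTN4 (0.06), WNT9A (0.06) and ANXA1 (0.07). FOS lay closest to VASN (0.20), GEM (0.24) and FAM43A (0.25). For FOSB and FOSL1 the closest genes were 0.53 (INHBA, then DUSP5 and PPP1R15A) and 0.69 (DLL4, then GDF15 and GPAT3) away. JUND spanned 0.95 log2 units at most and was not searched.

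FOSB lies on chromosome 19 of GRCh38 from 45467995 to 45475179 in GENCODE and overlaps ERCC1 on the other strand, and JUNB, on chromosome 19 from 12791486 to 12793315, overlaps HOOK2 likewise. Whether reads were counted by strand is not given in the sources used here, so reads of these partners cannot be told apart from the members' own. ERCC1 changed with H2O2 by -0.10 to 0.45 on the log2 scale over the 4 pairs, while FOSB changed by 1.55 to 5.13. HOOK2 was lower with H2O2 in all 4 pairs, from -0.19 to -1.04, while JUNB was higher in all 4. FOSL2, on chromosome 2 from 28392448 to 28417317, overlaps an antisense RNA and, on its own strand, another long non-coding RNA, neither of which was analysed here. FOS lies on chromosome 14 from 75278826 to 75282230, FOSL1 on chromosome 11 from 65892049 to 65900573, JUN on chromosome 1 from 58776845 to 58784048 and JUND on chromosome 19 from 18279694 to 18281622.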

How the data were processed

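RNA-seq counts were analysed for 8 libraries, 1 for each combination of cell line, construct and treatment. Per the labels, HISAT2 2.1.0 aligned the reads (genome GRCh38) and featureCounts 1.6.0 assigned them to genes. What was deposited are counts that nobody had normalized, and the annotation and strand setting are not given in the sources used here. The members, gene lists and tests were chosen with earlier results of these data known.

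Counts of all genes kept by filterByExpr were fitted with edgeR 4.0.16 (R 4.3.3, TMM, quasi-likelihood test, Benjamini-Hochberg adjustment over all 22418 genes, limit 0.05). Pairs of libraries that share line and construct (H2O2), line and treatment (PAGE4) or construct and treatment (line) were blocks. Single pairs were compared with DESeq2 1.42.0 size factors within the line, a pseudocount of 0.5, a mean of at least 10 and a fold over 1.5, without a test. Intervals (95%, Clopper-Pearson, or normal on the log scale for a difference of 2 responses) cover counting error only. RPKM used GENCODE 44 exon lengths. Promoters are from RefSeq. The fits were tested on simulated data.

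Named genes are the 7 members, PAGE4, the 2 highest and 2 lowest past the test for H2O2 in each list, the 3 genes most like each member that spans over 1 log2 unit in a line, and, where stated, genes singled out later. ERCC1 and HOOK2 were named for their overlap. In 22RV1 PAGE4 cells CREB5, MAPK11, MAPK13 and MAP2K1 were named as the calls of their lists. Alternatives were DESeq2 size factors, total counts, no filter, DESeq2's Wald test, the cell line as the only block, each pair left out, and for single pairs other factors, a pseudocount of 1, a mean of 50 and a fold over 2.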

Additional observations from a re-analysis of the deposited data

Results flagged for a closer look

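The H2O2 effect differed between the lines for 6 members in edgeR's quasi-likelihood test, which is why they are listed here. As DU145 minus 22RV1 on the log2 scale, the differences were -3.27 for FOSL1, -1.92 for FOSL2, -1.17 for FOS, -0.69 for JUNB, 1.11 for JUN and 2.08 for FOSB. FOSL2 rose in both 22RV1 pairs and was below 0 in both DU145 pairs.

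The effect of PAGE4 differed between the lines for FOSL1, by 2.62 on the log2 scale (DU145 minus 22RV1). Its PAGE4 difference in 22RV1 cells was -2.45 with H2O2, and in DU145 cells 0.12.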

How the results depend on the processing

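The number of members with an H2O2 effect stayed at 6 or 7 over the 4 pairs, at 7 in 22RV1 cells and at 6 or 7 in DU145 cells under every alternative run, and between the lines it ran from 4 to 6. Counts for PAGE4 moved more. Over the 4 pairs, 3 members passed with low counts left in. In 22RV1 cells 2 passed with DESeq2's Wald test and 1 to 6 when a pair was left out. In DU145 cells 2 passed with low counts left in and 0 to 2 without a pair. For the PAGE4 difference between the lines, 2 passed with DESeq2 size factors, 2 with total counts, 5 with low counts left in and 0 to 6 without a pair. For the H2O2 difference between constructs 0 or 1 passed without a pair. With a 2-fold limit, 0 members were higher in DU145 PAGE4 cells with PBS. The longest transcript as length moved 16 ranks. The cause was not tested.

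The labels carry no replicate numbers, and the pairs used as blocks are libraries that share all but 1 condition. With the cell line as the only block, in place of the pair as block, the PAGE4 difference of JUN over 4 pairs was -0.062 and no call of a member over 4 pairs changed.

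Some log2 values that had not passed changed sign when a pair was left out. For the H2O2 difference between constructs the range without a pair was -1.18 to 0.76 for FOS, -2.69 to 0.32 for FOSB, -3.03 to 0.61 for FOSL1, -1.61 to 0.48 for FOSL2 and -0.55 to 0.25 for JUNB. For the PAGE4 difference over the 4 pairs it was -0.88 to 0.24 for FOSB, -0.98 to 0.24 for FOSL1, -0.36 to 0.013 for FOSL2, -0.10 to 0.34 for JUN and -0.16 to 0.034 for JUNB. In 22RV1 cells the PAGE4 difference of JUN was -0.53 to 0.14, and in DU145 cells that of FOS was -0.44 to 0.20 and that of FOSL2 -0.11 to 0.22. For JUND the H2O2 difference between the lines was -0.23 to 0.034 and the PAGE4 difference between the lines -0.23 to 0.040. The line difference of JUN was -0.41 to 0.19. Of these values only that of FOSL1 between constructs (-3.03) and that of JUN in 22RV1 cells (-0.53) passed, each without 1 pair.

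Few reads limited FOSL1 in 22RV1 cells with PBS, at 30 and 13 reads, and FOSB in DU145 cells with PBS, at 17 and 32 reads. The 22RV1 libraries with PBS were the deepest of the series, at 43310401 and 39220010 counts. Where leaving out a pair leaves a line with 1 pair, its effect in that line rests on 1 library against 1 and takes its spread from the other line. Over all alternatives the count that rose with H2O2 over the 4 pairs ran from 12 to 20 of 25 immediate early genes, 12 to 19 of 31 targets, 5 to 9 of 17 partners and 1 to 3 of 21 kinases.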
